A study of Andropogon gerardi with 36 samples.

Results

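TCTP, the translationally controlled tumor protein, was followed in big bluestem (Andropogon gerardi), a prairie grass, on spotted 2-colour arrays built for maize. Its members were all probes whose single gene symbol in the platform's annotation is TCTP, which made it 1 of 583 symbols and gave it 16 of 19200 probes. They were followed over the 34 arrays that set plants of 2 different plots against each other. The plants came from the Konza site in 2005, total RNA was hybridised, and each array carried 1 plant code in the Cy5 channel and another in Cy3. A plant code gives the plot, then a subplot digit, then a letter whose meaning the labels do not state, so that 24b is plot 2, subplot 4, letter b. The 12 plots were met in 6 fixed pairs: plots 2 and 3 on 8 arrays, plots 4 and 5 on 7, plots 6 and 9 on 8, plots 7 and 10 on 4, plots 11 and 12 on 4, and plots 13 and 15 on 3. Sampling times were June (11 arrays), JulyA (6), JulyB (6) and August (11), and subplot 1 was set only against subplot 1, subplots 2 and 4 only against subplots 2 and 4. The sources used here do not give the treatment of each plot and subplot, the tissue or the age of the plants. The groups below are therefore plot pairs, sampling times and subplots, and nothing says whether plants of 1 plot were independent.

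TCTP is a small, highly conserved cytosolic protein of animals, fungi and plants. It was named in mammalian cells, where translation of its abundant mRNA is regulated, and there it binds calcium and tubulin. In Arabidopsis it is known as a regulator of growth and of cell division, and its loss disturbs the development of the embryo. Its mRNA is among the abundant ones in many growing plant tissues.

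Values are log2 ratios within an array, turned so that the lower-numbered plot of each pair stands first. The sources used here do not state whether the deposited ratio is Cy5 over Cy3 or the reverse. A sign below thus sets one array against another, and it leaves unsaid which plot had more TCTP mRNA. In these bulk samples, fewer cells with the mRNA and less mRNA per cell cannot be told apart. An array held values for 2199 to 9530 of its probes, and the median of all values of an array lay between -0.11 and 0.12. A further array that carried a single plant code in both channels was not used in any comparison, and 1 array had no values.

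TCTP was measured more often than the average probe of this heterologous array. Its probes had 376 values, 69.1% of those possible, against 28.7% over all probes. Single TCTP probes differed, with values on 7 arrays for probe 17904 and 10 for probe 19091. This was not particular to TCTP. Enough values for the plot fit below were held by 9 of 16 TCTP probes and 1668 of 19200 probes. For MNB1b these were 135 of 230 probes, for Sod4A 12 of 20 and for RPL27A 4 of 7. An array gave a value for between 3 and 15 of the 16 TCTP probes, with a median of 11.5. The mean number was lowest in June and highest in August: June arrays gave 9.64 ± 3.17 probes (SD, 11 arrays), JulyA arrays 10.8 ± 0.75 (6 arrays), JulyB arrays 11.7 ± 1.37 (6 arrays) and August arrays 12.3 ± 1.74 (11 arrays). The number of all values on an array did likewise, with medians of 3973 (June), 4235.5 (JulyA), 5646 (JulyB) and 7395 (August). JulyA and JulyB arrays came only from plots 2 and 3, plots 4 and 5 and plots 6 and 9, so time and pair are mixed here. The June arrays of plots 11 and 12 gave only 6 and 3 TCTP probes. In plots 2 and 3 the median was 11 in June and 11.5 in August, and in plots 6 and 9 it was 9.5 and 13.5. The part of the number of values in the TCTP ratios was not tested.

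The TCTP ratio was small on most arrays and stood out on 1. Averaged over the probes measured on an array, it lay above 0 on 15 arrays and below 0 on 19, and its mean was 0.02. The lowest array mean was -0.63 and the highest 1.61. The SD of the array means was 0.46, and the pooled SD of the probes within an array was 0.38. Probes of 1 gene share the array and the RNA, so the spread within an array is a spread between probes, not between plants. On 9 arrays all measured TCTP probes lay on 1 side of 0, and on 19 arrays at least 80% did.

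**Figure D1:**
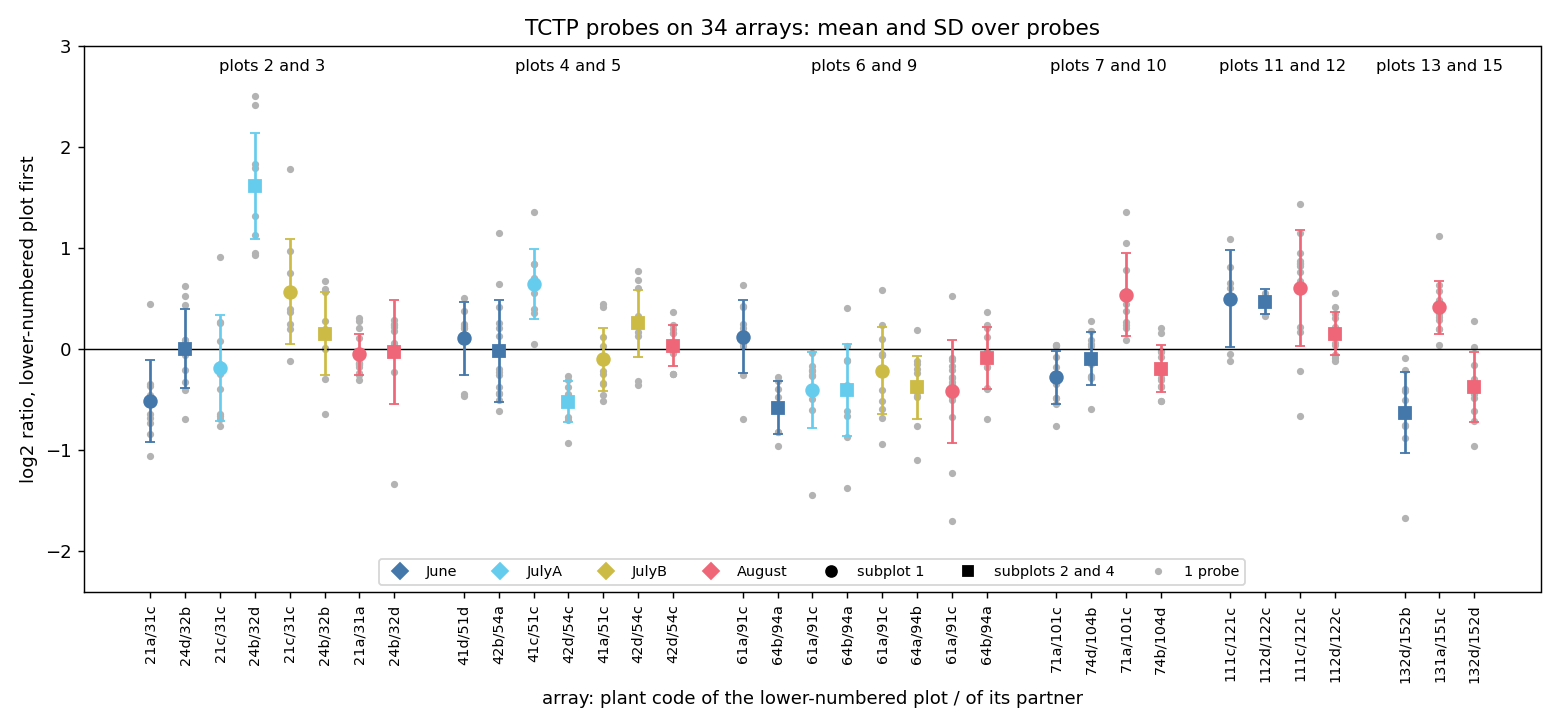
Log2 ratio of TCTP on each of 34 arrays, with the lower-numbered plot first. Grey points are probes, coloured symbols the mean over probes with its SD, coloured by sampling time, with circles for subplot 1 and squares for subplots 2 and 4. The JulyA array of 24b and 32d has a mean of 1.61 and lies above every other array.

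In plots 2 and 3 the subplot 1 arrays gave -0.52 (June), -0.18 (JulyA), 0.57 (JulyB) and -0.05 (August). Those of the other subplots gave 0.01 (June), 1.61 (JulyA), 0.16 (JulyB) and -0.03 (August). Neither series moved one way across the season. The JulyA array of 24b and 32d had 11 of 11 probes above 0, from 0.93 for probe 17635 to 2.51 for probe 10870, with an SD of 0.52 over probes. Its mean ratio is a 3.05-fold difference, and 98.7% of the gene features on that array lay below it. The same codes were compared again in August, where 7 of 9 probes were positive and probe 6064 stood at -1.33, which left a mean of -0.03. The mean of the pair was 0.19 ± 0.65 (SD, n = 8 arrays), and without the JulyA array of 24b and 32d it was -0.01.

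In plots 4 and 5 the arrays of JulyA lay on opposite sides of 0. All 10 measured probes were positive for 41c and 51c, with a mean of 0.65, and all 10 were negative for 42d and 54c, with a mean of -0.52. The remaining arrays of the pair had means of 0.11 and -0.02 in June, -0.10 and 0.26 in JulyB, and 0.04 on the only array used in August. The pair mean was 0.06 ± 0.35 (SD, n = 7), and its arrays fell on both sides of 0.

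In plots 6 and 9, 7 of 8 arrays lay below 0. Plot 6 was in Cy5 on all of them, so plot and dye cannot be told apart within this pair. For 61a and 91c, the codes compared at all 4 times, the mean was 0.12 (June), -0.40 (JulyA), -0.21 (JulyB) and -0.42 (August). In JulyA all 11 measured probes were negative on that comparison, and in August 14 of 15 were. The other subplots gave -0.58 in June (8 of 8 probes negative), -0.40 in JulyA, -0.38 in JulyB (12 of 13 negative) and -0.09 in August. On that June array the median of all values was -0.11. The pair mean was -0.29 ± 0.22 (SD, n = 8).

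Plots 7 and 10 were sampled in August and June. The ratio of 71a and 101c was 0.54 in August, with 10 of 10 probes positive, and -0.28 in June. The arrays of the other subplots gave -0.19 in August and -0.09 in June. The pair mean was -0.01 ± 0.37 (SD, n = 4), so that the single array of 71a and 101c in August set the pair apart from a uniformly negative one. That array had plot 7 in Cy3, and its ratio as deposited was -0.54. The June array of these codes had plot 7 in Cy5, so time and dye orientation cannot be told apart for them.

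Plots 11 and 12 were positive on all 4 arrays. Plot 11 was in Cy5 on each of them, so plot and dye cannot be told apart within this pair. For 111c and 121c the mean was 0.61 in August and 0.50 in June, and for 112d and 122c it was 0.15 in August and 0.47 in June. The June values rest on few probes, 6 for 111c and 121c and 3 for 112d and 122c, where the August arrays had 13 each. On the June array of 112d and 122c the median of all values was 0.12. The pair mean of 0.43 ± 0.19 (SD, n = 4) was the highest of the 6 pairs.

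Plots 13 and 15 had 3 arrays. For 131a and 151c in August the mean was 0.41 with 13 of 13 probes positive, for 132d and 152d in August it was -0.37, and for 132d and 152b in June it was -0.63 with 12 of 12 probes negative. The last is the lowest array mean without centring, and 7.42% of the gene features on that array lay below it. The median of all values on that array was -0.10, so part of its TCTP mean is shared by the whole array. The pair mean was -0.20 ± 0.54 (SD, n = 3), and the arrays of subplot 1 and of subplot 2 lay on opposite sides of 0.

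Whether the plots of a pair differed in TCTP was asked with limma fitted to all features, with 1 coefficient per pair, a term for dye orientation, and arrays that shared pair and subplots treated as a random block. P-values were adjusted over all features by Benjamini-Hochberg. Features in the gene-level fit were means over the measured probes of each symbol, or single probes without one. TCTP did not pass: the F test over the 6 pairs gave an adjusted p of 0.761 with limma, and TCTP ranked 214 of 1359 features. No feature passed in that fit, 0% of 1359, although 103 had an unadjusted p under 0.05. Arrays of a pair share plants by code. The estimated correlation within blocks was negative (-0.05), so the block did not widen the errors for that sharing. These p-values may therefore be too small.

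The largest fitted TCTP difference was that of plots 11 and 12, at 0.52 ± 0.25 (SE) with a 95% interval that reached down almost to 0 and up to 1.03. Its unadjusted p was just under 0.05 and its adjusted p was 0.570 with limma. An unadjusted p under 0.05 was reached by 8.68% of the gene features in this pair. Plots 2 and 3 had 0.22 ± 0.15 (interval -0.08 to 0.51), plots 4 and 5 had 0.14 ± 0.20 (-0.28 to 0.55) and plots 6 and 9 had -0.21 ± 0.19 (-0.61 to 0.18). In plots 7 and 10 the coefficient was -0.01 ± 0.21 (-0.44 to 0.43), and in plots 13 and 15 it was -0.12 ± 0.28 (-0.70 to 0.45).

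One array weighed on these values. Without the JulyA array of 24b and 32d the coefficient of plots 2 and 3 was 0.02 ± 0.12 (SE). That of plots 11 and 12 was then 0.64 ± 0.20, with an adjusted p of 0.114 with limma. The F test without it gave an unadjusted p under 0.05 and an adjusted p of 0.473 with limma, and TCTP did not pass in either case. The dye term of TCTP was -0.08 ± 0.13 (SE).

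**Figure D2:**
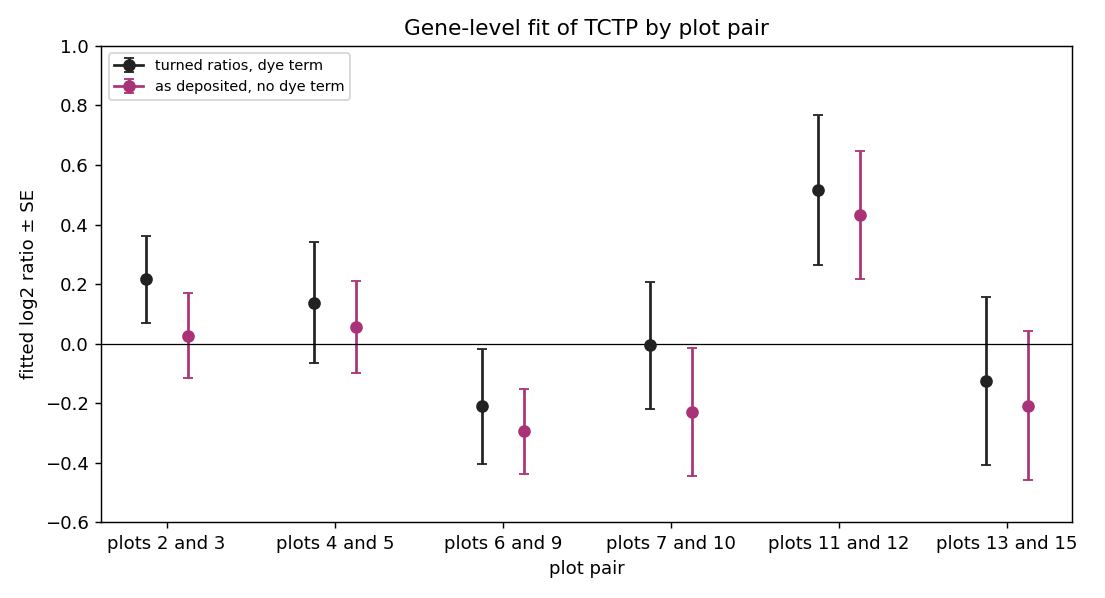
Fitted log2 ratio of TCTP in each plot pair with its SE, from the gene-level limma fit. Black points are ratios turned to the lower-numbered plot with a dye term, purple points the deposited orientation without a dye term. Plots 11 and 12 lie highest in both, at 0.52 and 0.43, and plots 7 and 10 shift the most between them, -0.01 against -0.23.

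Leaving every ratio in its deposited orientation and dropping the dye term gave -0.29 ± 0.14 (SE) for plots 6 and 9, with an unadjusted p under 0.05 and an adjusted p of 0.445 with limma. The coefficient of plots 11 and 12 was 0.43 ± 0.21 under that reading, and that of plots 7 and 10 was -0.23 ± 0.21. The 5 arrays with the lower-numbered plot in Cy3 belong to plots 2 and 3 and to plots 7 and 10, whose means as deposited were 0.03 ± 0.68 and -0.23 ± 0.26 (SD). Those means join ratios with opposite plots first, so they are not plot differences.

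At the level of probes, 9 of the 16 TCTP probes were tested among 1668 probes, since a test needed values on 28 or more arrays, with 2 or more in every pair. The other 7 had values on 7 to 24 arrays. An unadjusted p under 0.05 over the pairs was reached by 1 of the 9 (probe 4678, adjusted p = 0.618 with limma), where 7.37% of all tested probes reached it. None passed after adjustment, and neither did any other probe.

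The tested TCTP probes shared their sign in 3 pairs. All 9 coefficients were positive in plots 2 and 3, with a median of 0.19, where 27.6% of all tested probes were positive and their median was -0.09. All 9 were positive in plots 11 and 12, with a median of 0.52 and a range from 0.02 for probe 15436 to 0.73 for probe 4678, where 48.4% of all probes were positive. All 9 were negative in plots 6 and 9, with a median of -0.24, where 58.8% of all probes were negative. Probes of 1 gene measure 1 transcript pool on the same arrays, so a shared sign is not 9 separate results. Without the JulyA array of 24b and 32d, 6 TCTP probes were still tested: 2 were positive in plots 2 and 3, 4 were negative in plots 6 and 9, and 6 were positive in plots 11 and 12. Without either August array of plots 11 and 12, 3 probes were still tested and 2 of them were positive there. The shares over all probes were not taken for the fits without an array.

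Probe 4678 had the only TCTP coefficient with an unadjusted p under 0.05, 0.73 ± 0.28 (SE) in plots 11 and 12, with an adjusted p of 0.358 with limma. A positive coefficient with such a p was reached by 1.86% of all tested probes in that pair. Its log2 ratios there were 1.44 and 0.14 in August and 0.82 and 0.56 in June, so that all 4 arrays were positive. In the other pairs the tested TCTP probes had both signs. Plots 4 and 5 had 5 positive and 4 negative, where 51.8% of all tested probes were positive. Plots 7 and 10 had 4 positive and 5 negative, where 55.7% of all tested probes were positive. Plots 13 and 15 had 2 positive and 7 negative, where 40.7% of all tested probes were negative.

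The TCTP probes varied together across arrays to differing degrees. For each probe the uncentred correlation with the mean of the other TCTP probes was taken, a measure that does not change when an array's ratio is turned. It was highest for probe 7226 at 0.894 (31 arrays) and probe 4678 at 0.889 (33 arrays). Probes 10443, 418, 13020 and 10870 followed at 0.837, 0.836, 0.829 and 0.811, and probes 135, 15436 and 6017 at 0.798, 0.762 and 0.737. Those are the 9 tested probes. Among the rest, probes 17904, 17635, 4114, 19091 and 6064 lay between 0.572 and 0.710, and probe 10019 at 0.456. Probe 2038 was the exception at -0.407 over 12 arrays, with the sign of the other probes on 6 of them.

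Over the 50 TCTP probe pairs that shared at least 20 arrays, the uncentred correlation had a median of 0.677 and ran from 0.120 to 0.891. Without the JulyA array of 24b and 32d the median was 0.566. The 9 tested TCTP probes had a median of 0.737 among themselves, which ranked 9 of the 34 symbols with at least 3 tested probes. All pairs of tested probes had a median of 0.0344. The symbol with the highest value was hsp70-4, a heat shock chaperone, at 0.851. These correlations are descriptions: the probes share arrays, and sequence overlap between probes was not analysed here.

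**Figure D3:**
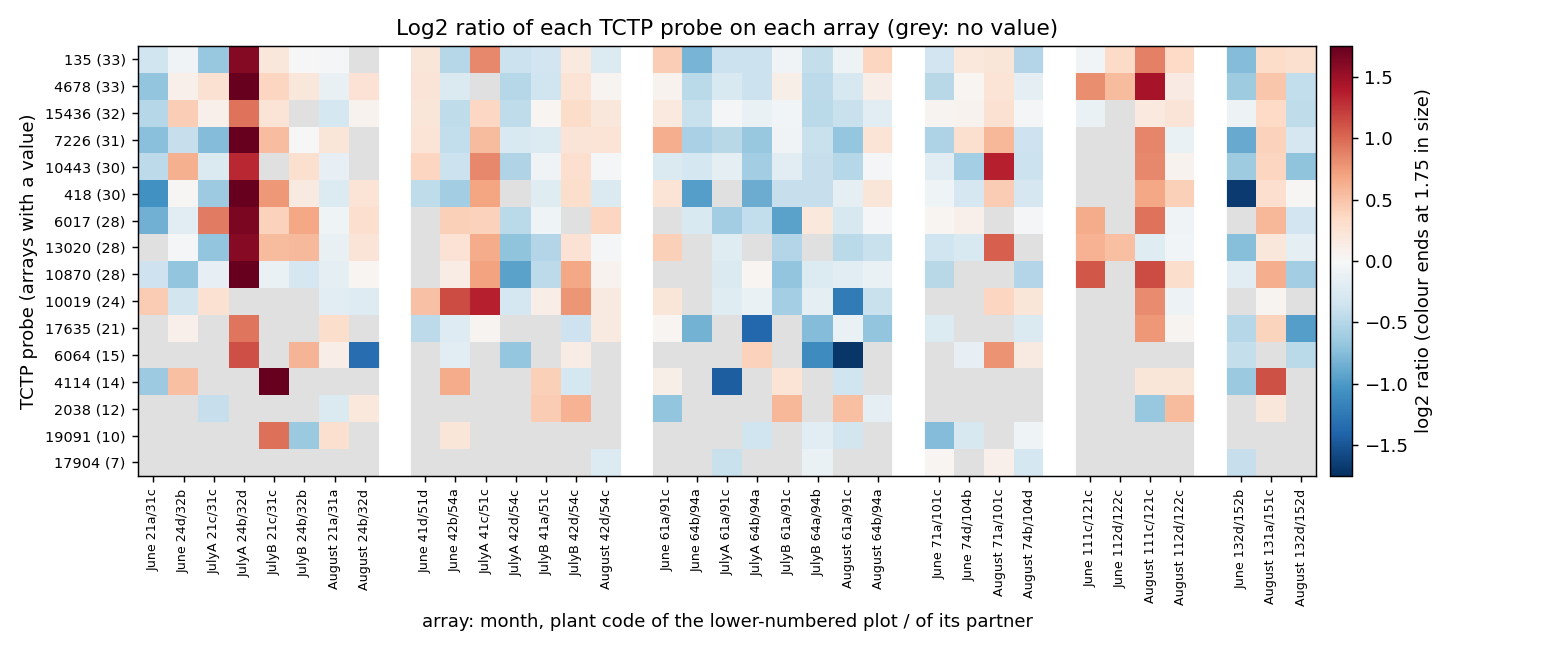
Log2 ratio of each TCTP probe on each array, arrays grouped by plot pair and probes ordered by the number of arrays with a value. Grey cells had no value. The column of the JulyA array of 24b and 32d is positive for all 11 measured probes, and probe 2038 departs most from the rest.

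The probes also differed in how wide they swung. Probe 15436 had the narrowest range of the tested probes, from -0.50 to 0.95 over 32 arrays with a median of 0.04. Probe 10870 ran from -0.93 to 2.51 over 28 arrays with a median of -0.15, and probe 7226 from -0.88 to 2.42 over 31 arrays. Probe 418 reached -1.67 on the June array of 132d and 152b, and probe 6064 had the lowest value of all, -1.70 on the August array of 61a and 91c. On the JulyA array of 24b and 32d, probe 15436 showed 0.95 where probe 10870 showed 2.51. The size of a TCTP ratio thus depended on the probe, while the sign on that array did not.

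Within pairs, no single probe was highest throughout. Among probes measured on at least 50% of the arrays of a pair, the highest mean in plots 2 and 3 was that of probe 6017 (0.35 ± 0.76, SD, n = 8) and the lowest that of probe 10019 (-0.00 ± 0.34, n = 5). Probe 10019 was the highest in plots 4 and 5 (0.54 ± 0.60, n = 7) and in plots 7 and 10 (0.29 ± 0.12, n = 2). Probe 17635 was the lowest in plots 4 and 5 (-0.17 ± 0.26, n = 5) and in plots 6 and 9 (-0.62 ± 0.51, n = 6), where probe 2038 was the highest (0.06 ± 0.61, n = 4). Probe 10870 was the lowest in plots 7 and 10 (-0.50 ± 0.02, n = 2) and the highest in plots 11 and 12 (0.85 ± 0.47, n = 3), where probe 2038 was the lowest (-0.05 ± 0.86, n = 2). In plots 13 and 15 probe 4114 was the highest (0.24 ± 1.25, n = 2) and probe 418 the lowest (-0.45 ± 1.06, n = 3). Probes with values on fewer arrays went past these limits in 3 pairs: probes 4114 (0.56), 17635 (0.45) and 2038 (-0.16) in plots 2 and 3, with 3 arrays each, and probe 6064 in plots 4 and 5 (-0.25, n = 3) and in plots 6 and 9 (-0.80, n = 3). In plots 4 and 5 probe 17904 also did, with -0.24 on 1 array. Most of these SDs exceed the means, so the order of probes within a pair is not settled by these arrays.

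Whether the TCTP ratio changed over the season was asked of a fit with 1 mean for every combination of pair and time. TCTP gave an F test with an adjusted p of 0.987 with limma, among 905 gene features of which 0% passed and 65 had an unadjusted p under 0.05. For August minus June alone the adjusted p was 0.996. The largest contrast was JulyA minus June in plots 2 and 3, at 0.97 ± 0.48 (SE, adjusted p = 0.714 with limma), and it contains the JulyA array of 24b and 32d. August minus June in plots 13 and 15 was 0.66 ± 0.59 (SE), and the remaining contrasts lay between -0.18 and 0.36. Of the 4 TCTP probes that could be tested over time, 0 had an unadjusted p under 0.05 in limma's F test, where 7.7% of 1078 probes did. Among their single contrasts, 1 had such a p: JulyA minus June in plots 2 and 3 for probe 4678, at 1.35 ± 0.51 (SE, adjusted p = 0.356 with limma). A positive contrast with such a p was reached there by 4.17% of the probes, and this one too contains the array of 24b and 32d.

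Plant codes compared more than once gave the ratio of the same codes at several times. The ratio of 42d and 54c was -0.52 in JulyA, 0.26 in JulyB and 0.04 in August. That of 64b and 94a was -0.58 in June, -0.40 in JulyA and -0.09 in August, negative at all 3 times. For 111c and 121c and for 112d and 122c it was positive in August and in June, as given above. For 21c and 31c it was -0.18 in JulyA and 0.57 in JulyB, and for 24b and 32d it was 1.61 in JulyA and -0.03 in August. In the 2 code pairs that were run in both dye orientations, 21c and 31c and 71a and 101c, the ratio as deposited was negative on both arrays. There, sampling time and dye orientation cannot be told apart.

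**Figure D4:**
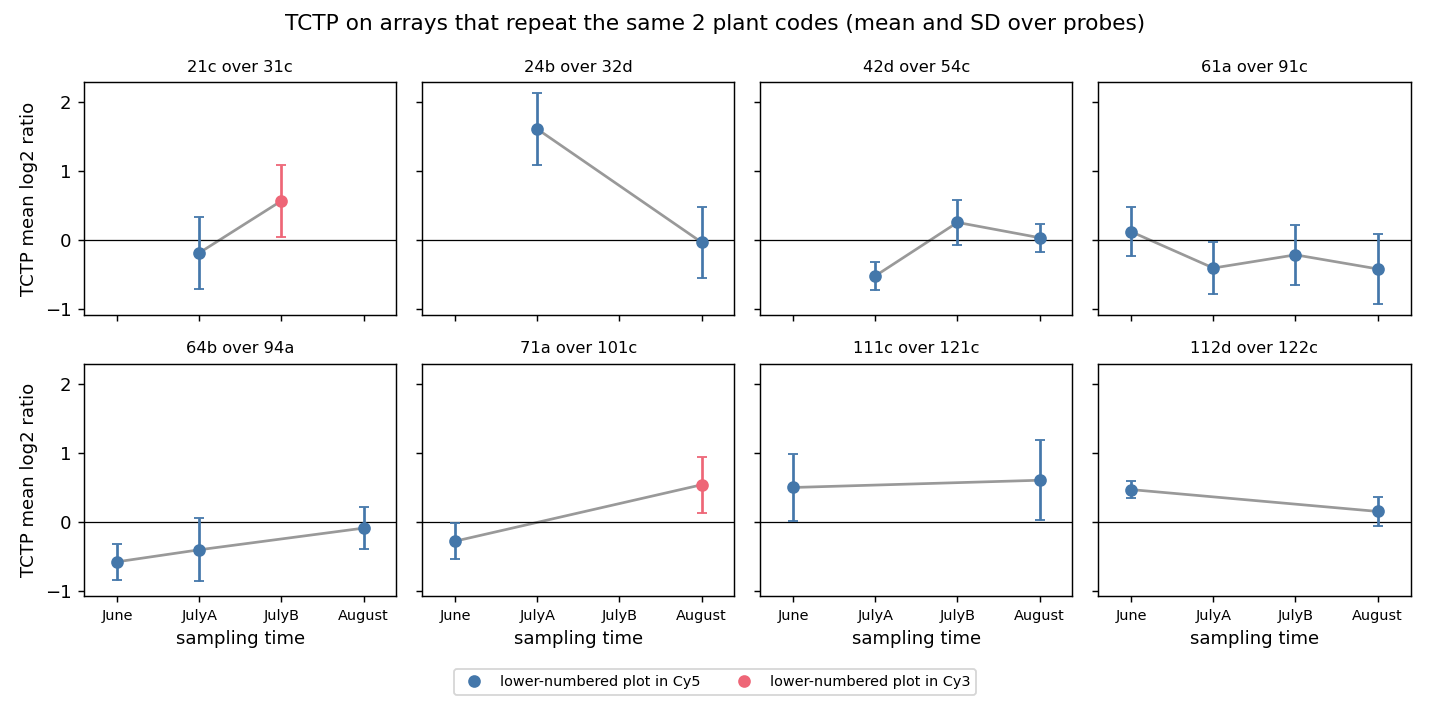
Mean log2 ratio of TCTP with the SD over probes for each pair of plant codes compared at more than 1 sampling time, lower-numbered plot first. Blue points had that plot in Cy5 and red points in Cy3. The ratios of 111c and 121c stay positive, those of 64b and 94a stay negative, and 24b and 32d differ most between times, 1.61 in JulyA and -0.03 in August.

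Subplot 1 and the other subplots of a pair were compared in the same way, and TCTP did not pass: the F test gave an adjusted p of 0.9999 with limma, among 1293 gene features of which 0% passed and 39 had an unadjusted p under 0.05. The differences of subplot 1 minus the others were -0.55 ± 0.31 in plots 2 and 3, 0.28 ± 0.33 for plots 4 and 5 and 0.13 ± 0.30 for plots 6 and 9. For plots 7 and 10 the difference was 0.27 ± 0.43, for plots 11 and 12 it was 0.24 ± 0.43, and plots 13 and 15 had the largest, 0.92 ± 0.53 (SE). Of the 9 TCTP probes in that fit, the F test of 1 gave an unadjusted p under 0.05 (probe 10443, adjusted p = 0.9999 with limma), which 2.65% of 1583 probes reached. In plots 2 and 3 alone, subplot 1 minus the others was -0.94 ± 0.44 for probe 418, -1.03 ± 0.35 for probe 10443, -0.95 ± 0.45 for probe 13020 and -0.68 ± 0.30 for probe 15436 (SE). These 4 of 9 contrasts had an unadjusted p under 0.05 and an adjusted p of 0.990 with limma, and 2.08% of all probes had a negative contrast with such a p in that pair. The other subplots there include the JulyA array of 24b and 32d. In plots 7 and 10 the contrast of probe 10443 was 1.07 ± 0.43 (SE, adjusted p = 0.997 with limma), where 0.948% of the probes had a positive contrast with an unadjusted p under 0.05. No TCTP contrast between subplots passed after adjustment.

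At a single time, subplot 1 and the other subplots could be set side by side in 16 combinations of pair and time. The ratios had the same sign in 8 of them, and that of subplot 1 was the higher in 9. The difference ran from -1.79 (plots 2 and 3, JulyA) to 1.16 (plots 4 and 5, JulyA), with a mean of 0.09 ± 0.69 (SD). JulyA thus held the widest gaps in both directions, while in plots 6 and 9 at that time both arrays stood at -0.40.

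Few genes of related function carried a symbol on this array. Of a list of translation genes only RPL27A, a protein of the large ribosomal subunit, was found, with 7 probes and an adjusted p of 0.975 in limma's F test over the pairs. In plots 11 and 12, where TCTP had 0.52 ± 0.25, RPL27A had -0.21 ± 0.17 (SE). RPL27A shared the TCTP sign for plots 2 and 3 (0.06), plots 6 and 9 (-0.06) plus plots 13 and 15 (-0.05). Its sign was opposite for plots 4 and 5 (-0.10) as well as plots 7 and 10 (0.03). Its 4 tested probes had a median uncentred correlation of 0.290 among themselves, rank 33 of 34 symbols, so its gene mean is a weak comparison. Of the cytoskeleton and cell division list, the tubulin genes tua4 and TUBB2 were found with 14 probes, and tua4 could be tested, with an adjusted p of 0.843 with limma. The tua4 coefficient in plots 2 and 3 was -0.26 ± 0.13 (SE), where that of TCTP was 0.22 ± 0.15. The signs of tua4 and TCTP were shared by plots 4 and 5, with tua4 at 0.05, then by plots 6 and 9, with tua4 at -0.11. They were opposite for the remaining pairs, where tua4 ran from -0.03 (plots 11 and 12) up to 0.33 (plots 13 and 15). Lists of growth signalling and calcium binding genes matched 0 symbols. Of the tissue lists, the leaf gene Cab-m7 and the seed gene gz27 had 1 probe each and too few values for the fit, and root and pollen lists matched 0 symbols, so the tissue could not be checked against markers.

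The genes whose ratio followed TCTP most closely were sought among 124 symbols that shared at least 28 arrays with it, by the uncentred correlation of gene means. The median over these symbols was -0.06. LOC606450 stood first at 0.558 (34 arrays), then LOC542600 at 0.546 (32), IPP at 0.471 (29), LOC542602 at 0.438 (30) and LOC541841 at 0.387 (33). Without the JulyA array of 24b and 32d, LOC606450 had 0.292, IPP 0.233, LOC542602 0.265 and LOC541841 0.148, while LOC542600 had 0.584 and stood first. LOC606450, LOC542602, IPP and LOC541841 then ranked 7, 10, 13 and 24. LOC542348 (0.385), LOC541791 (0.378) and LOC541667 (0.356) stood next after LOC542600, so most of the leading symbols rest on that array. The most opposite were LOC542529 at -0.473 (29 arrays), LOC541650 at -0.451 (30) and mbd105, named for a methyl-CpG-binding domain, at -0.423 (28). Without that array they were at -0.147, -0.539 and -0.346. The points share arrays and RNA, so these values are descriptions.

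**Figure D5:**
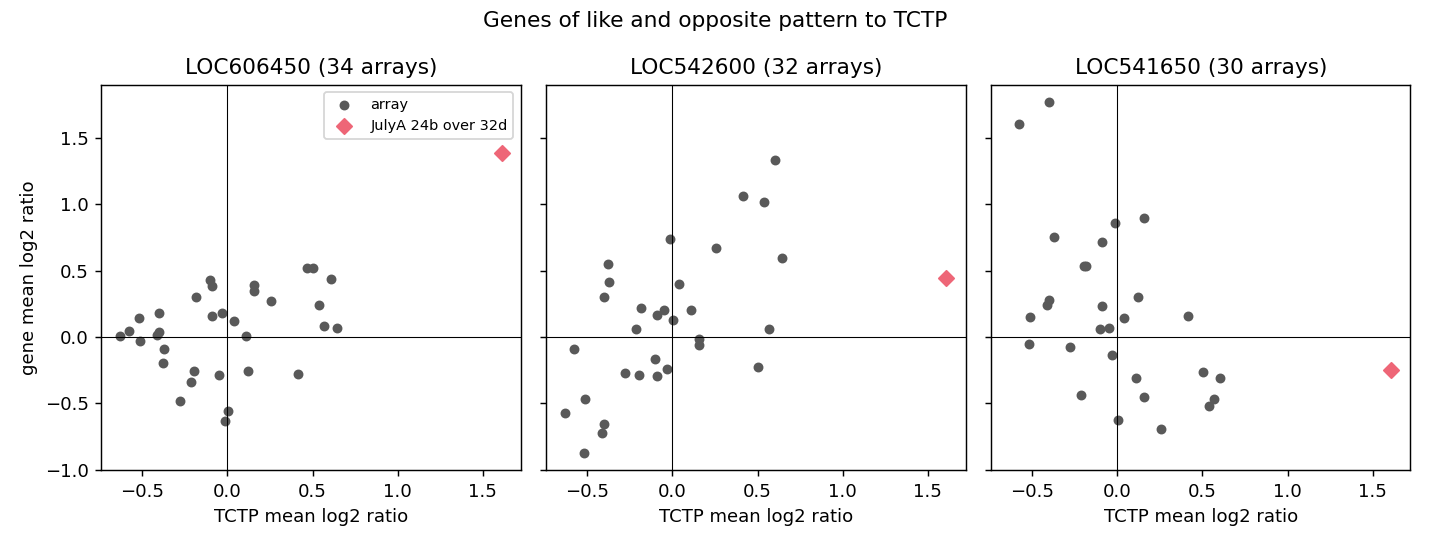
Gene mean log2 ratio of LOC606450, LOC542600 and LOC541650 against that of TCTP, with 1 point per array. The array at the far right of each panel is the JulyA array of 24b and 32d, with TCTP at 1.61, and the uncentred correlation of LOC606450 is 0.558 with it and 0.292 without it.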

How the data were processed

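Total RNA was measured on 2-colour arrays. The authors deposited 1 value per probe and array. That these are log10 ratios was settled from the deposited values: on each array 82.3% to 99.1% of them equalled the logarithm of a fraction of whole numbers (denominator at most 1000, tolerance 6e-10), and at most 0.126% did after a small shift. The scanner, background correction, normalization, filters and ratio direction were not given in the sources used here. All values were converted to log2, and the 5 arrays with the lower-numbered plot in Cy3 were turned. The number of arrays limits the precision. Of 19200 probes, 1800 had 1 symbol in the platform's annotation, 23 several and 17377 none. The linear models used R 4.3.3, limma 3.58.1 and, for the random block, statmod 1.5.0 (correlation -0.07 over probes, -0.05 over gene features), moderated variances, and features with values on at least 28 arrays. The plot fit also needed values on 2 arrays of every pair. The sampling-time and subplot fits instead needed a value in every combination of pair and time, or of pair and subplots. The block equalled the cells of the subplot fit, so its correlation was 0 there. The fits were tested on simulated data, with shifts of 1 and 2 log2 units added in plots 6 and 9 only. Each size was given to 100 features of the same table, and errors were drawn independently between arrays, apart from a dye effect. For gene features, the plot fit recovered 77% of shifts of 1, the sampling-time fit 0% and the subplot fit 2%. A miss in the sampling-time and subplot fits thus says little. Many changed features ease the Benjamini-Hochberg threshold: the simulated plot fit called 185 gene features, the fit of the data 0. Recovery of a feature that shifts alone would be lower and was not simulated. Smaller shifts, shifts in pairs with fewer arrays, and plants shared between arrays were not simulated either. The recovery of the plot fit therefore does not cover a difference such as the 0.52 of plots 11 and 12. Unadjusted limma p-values below 0.05 came up for 6.9% of the unchanged gene features in the plot fit. All TCTP probes are accounted for, and the named ones are those in the fit and the extremes of each pair. The gene and the lists were chosen with earlier results of these data known. Alternatives were no block, other blocks, filters, centring, scaling, orientation, probe summaries and leaving out each array. The correlations without the array with the highest TCTP mean were added after seeing the data.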

Additional observations from a re-analysis of the deposited data

Results flagged for a closer look

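In plots 2 and 3 the JulyA array of 24b and 32d stood apart from the other arrays of the pair for 4 TCTP probes, by the gap between the highest value and the next. Probe 135 was at 1.61 there with the next array at 0.19 (7 arrays), and probe 4678 at 1.84 with the next at 0.37 (8 arrays). Probe 7226 was at 2.42 with the next at 0.54 (7 arrays), and probe 10870 at 2.51 with the next at 0.04 (8 arrays). Chance alone sets about 1 in 20 such groups apart, 41 groups of a probe or gene mean within a pair were examined, and the 4 values come from 1 array. The array held 4890 values, and the median absolute deviation of all its log2 ratios was 0.714, within the range of the other arrays. The TCTP mean of the pair was 0.19 with it and -0.01 without it.

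The array labelled with the plant code 131d in both channels was used in no comparison and carried TCTP values. Its 14 measured TCTP probes had a median of 0.43 and ran from -9.69 for probe 15436 to 1.25, with 8 positive and 6 negative. Over all 13515 values of that array the median was -0.40 and the median absolute deviation 1.33, wider than on the arrays compared. No cause of this spread was tested.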

How the results depend on the processing

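No alternative, and no left-out array, made TCTP pass the threshold in the gene-level fits or its probes in the plot fit. The probe-level fits of sampling times and subplots were not rerun. The adjusted p of its gene mean ran from 0.394 to 0.994 for the plot difference (0.473 to 0.944 when each array was left out), from 0.940 to 0.989 for the sampling times (0.688 to 0.998) and from 0.836 to 0.99998 for the subplots. Some coefficients near 0 turned sign. That of plots 7 and 10 was 0.0013 with arrays centred on their median, and ran from -0.18 to 0.061 with each array left out. That of plots 13 and 15 ran from -0.42 to 0.10. The cause was not tested. The pair means with each array of the pair left out ran from -0.01 to 0.30 in plots 2 and 3 and from 0.37 to 0.53 in plots 11 and 12. Over the whole table, 0 features passed with turned ratios and a dye term. With turned ratios and no dye term, 0 probes passed for the plot difference. With ratios as deposited and no dye term, 56 probes and 50 gene features passed for it. For the sampling times 2 gene features then passed, and 6 for August minus June. In plots 2 and 3 and in plots 7 and 10, the deposited orientation joins ratios with opposite plots first. It thus gives no plot difference there. With turned ratios and a dye term, but without the August array of 112d and 122c, 32 probes and 40 gene features passed for the plot difference. Without the August array of 71a and 101c instead, 2 gene features passed for the sampling times and 2 for August minus June. TCTP was not among them. No TCTP probe had values on all 34 arrays, so that filter gave no probe value. With arrays of the same pair and sampling time as the block, the adjusted p was 0.992 for the plot difference, 0.981 for the sampling times and 0.9999 for the subplots. Limits are the small number of arrays per pair, plant codes shared between arrays, and the unknown direction, treatments and tissue.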
